A study of Mus musculus with 6 samples.

Results

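The genes described here encode the molecular chaperones of the cytosol and the mitochondrion and their closest helpers. They were chosen by symbol alone: Hspa, Hspb, Dnaja, Dnajb or Dnajc followed by a number, Hspd1, Hspe1, Hsph1, Hsp90aa1, Hsp90ab1, Bag1 to Bag5, Cryab, Stip1, Chordc1 and Ahsa1, without the endoplasmic reticulum proteins Hspa5, Dnajb9, Dnajb11, Dnajc3 and Dnajc10. On the arrays, 95 of 28944 probe sets carried exactly one such symbol, and they stood for 73 of 19938 genes. Hsp90ab1 was not analysed here. Of the 73 genes, 63 had a mean over the 6 arrays at or above the median of all probe sets (a log2 signal of 4.345) and were tested. The remaining 10 genes were too dim.

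Hearts labelled 2-methyl-2-thiazoline (2MT), a small thiazoline molecule, stood against hearts labelled saline, 3 of each. All came from male C57BL/6 mice aged 10 weeks, and left ventricular RNA was read on 1 Affymetrix array per sample. Under the protocol text that every sample carries, 2MT went under the skin at 50 mg/kg, the hearts were removed 4 h later, and labelling began from 100 ng of total RNA. That text describes no saline injection, and nothing in the labels says that each array is a separate animal, so the p-values here describe the scatter among these arrays, part of which may be technical. The study's stated interest is how the compound protects the heart.

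Chaperones bind unfolded stretches of protein and use cycles of ATP hydrolysis to release them for folding. HSP70 proteins are loaded by J-proteins, whose J domain stimulates the HSP70 ATPase, and are unloaded by exchange factors such as the BAG and HSP110 proteins. HSP90 takes late clients from HSP70, small heat shock proteins hold unfolding proteins without ATP, and the HSP60 and HSP10 chaperonin folds proteins inside mitochondria. In heart muscle, small heat shock proteins are abundant and protect the sarcomere, and many of these genes are induced by heat shock factor 1 through pentamer repeats in their promoters. The symbol rule is broader than its name. For example, Dnajb12 and Dnajb14 are proteins of the endoplasmic reticulum membrane, and Hspb11 is a subunit of the intraflagellar transport complex.

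The arrays themselves were alike, with correlations across tested genes of 0.992 to 0.995 within groups and 0.987 to 0.990 between them. On the second principal component, which held 17.7% of the variance, saline 3 lay at -11.63 and the other arrays between -1.12 and 4.65. The mean of 3 erythrocyte markers was 5.97 on saline 3 and 5.04 to 5.38 on the other arrays, while 4 atrial markers averaged 4.42 on saline 2 and 3.46 to 3.55 elsewhere. All 10 cardiomyocyte markers lay above the dim floor, and their mean was 12.12 to 12.15 in 2MT hearts and 12.12 to 12.15 in saline hearts. Of 4 atrial and 6 skeletal muscle markers, 3 and 5 lay under the floor. Markers of other cells that passed in limma were Pecam1 (endothelium, -0.33, adjusted p = 0.02), Lyve1 (macrophages, -0.34, 0.0353) and Cidea (adipocytes, -0.26, 0.0435). Each was lower in 2MT hearts. Their lists were mixed, with higher means in 2MT hearts in 3 of 6 endothelial and 4 of 6 macrophage markers. Of 5 adipocyte markers, 4 lay under the floor. The part of these cells in the chaperone values was not tested. In whole tissue, fewer cells of a type and less RNA per cell cannot be told apart.

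Few of the chaperone genes passed the test. Of 63 tested genes, 2 rose in 2MT hearts, Dnajb5 and Dnajb1, and 0 fell at a limma adjusted p of 0.05 over all 10547 genes. That is 3.17% of the chaperone genes, against 4.63% of all genes tested (2.22% higher and 2.41% lower). At an unadjusted p under 0.05 there were 8 higher and 3 lower, or 17.5% of the chaperone genes, against 17.8% of all genes (9.60% higher and 8.15% lower). The 2MT and saline arrays did not overlap in 9 genes (14.3%), 5 higher and 4 lower, against 21.1% of all genes (11.1% higher and 10.1% lower). The median difference, 2MT minus saline, was -0.01 on the log2 scale, beside 0.00 over all tested genes. The median size of a difference was 0.08, beside 0.09. With the 10 dim genes included the median was also -0.01.

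**Figure D1:**
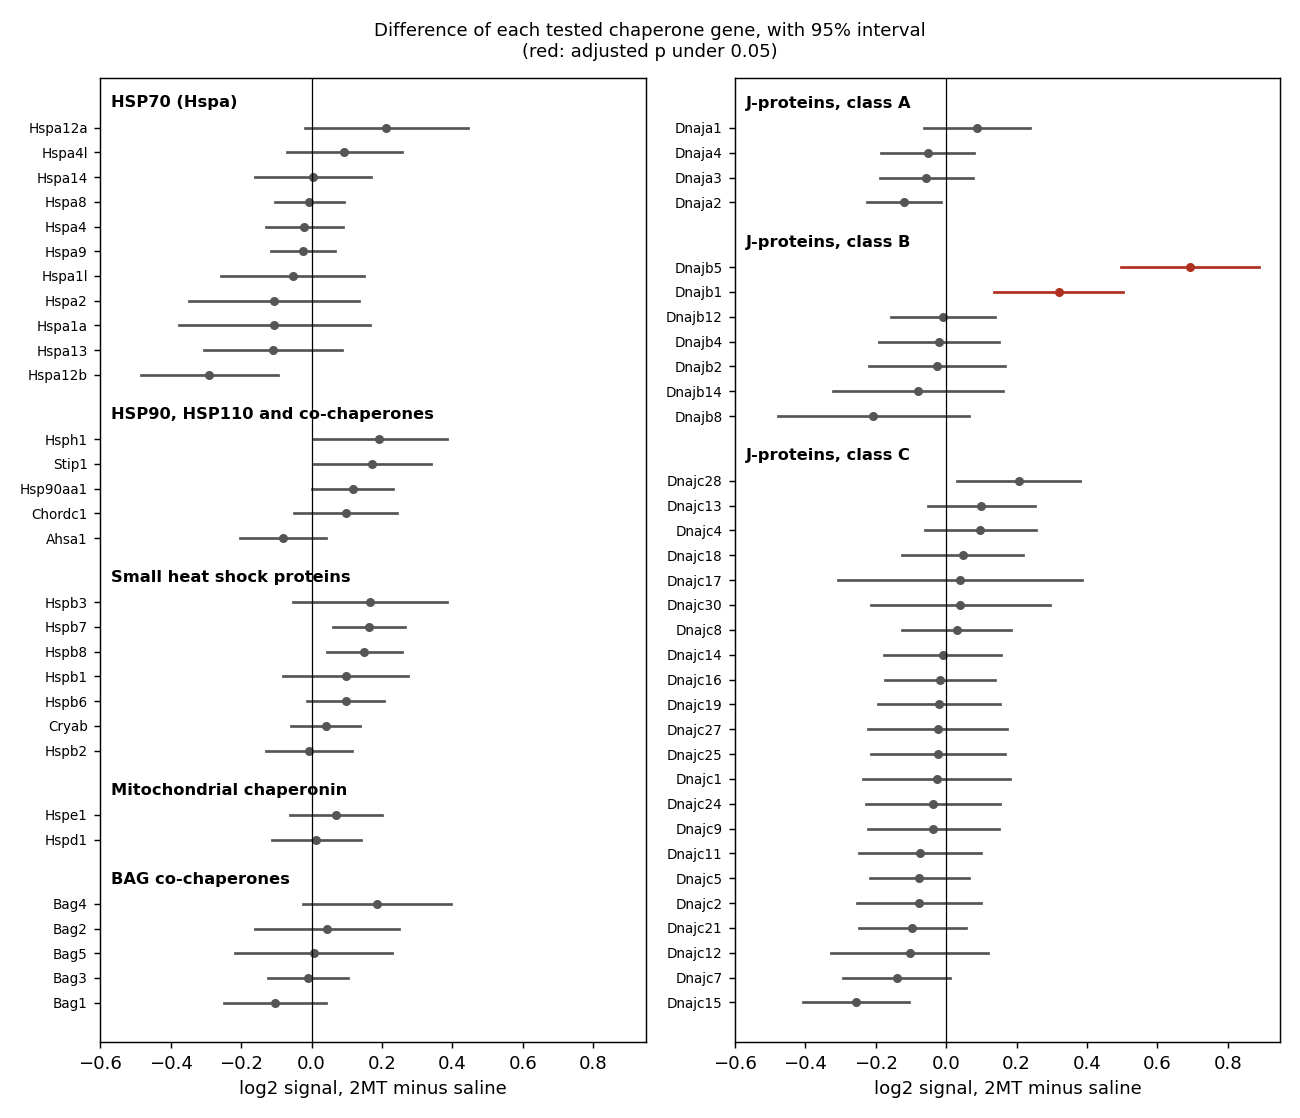
Difference in log2 signal, 2MT minus saline, for each of the 63 tested chaperone genes by role, with its 95% interval from limma (n = 3 arrays a group). Dnajb5 at 0.69 and Dnajb1 at 0.32 are the 2 genes drawn in red for an adjusted p under 0.05, and the other points lie between -0.29 and 0.21.

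The smallest p among the chaperones was that of Dnajb5, a class B J-protein of the same branch as Dnajb1 and Dnajb4. In mouse heart it is known to form a complex with thioredoxin 1 that controls where the histone deacetylase HDAC4 sits in the cell. Its log2 signal was 6.40, 6.39 and 6.54 in the 3 2MT hearts, against 5.57, 5.86 and 5.82 in the saline hearts. Every 2MT value lay above every saline value, and the gap between the groups exceeded the spread within either. Dnajb5 rose by 0.69 ± 0.09 (SE), 1.62-fold, with a limma adjusted p of 4.8e-04, and ranked 62 by p among all genes tested. It passed in all 17 alternative settings, with differences from 0.56 to 0.75 and adjusted p values from 1.9e-04 to 0.00627.

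Dnajb1, the heat-inducible J-protein that partners HSP70, was the other rise. It read 5.91, 6.04 and 6.13 in 2MT hearts, against 5.77, 5.71 and 5.64 in saline hearts, again without overlap. The difference was 0.32 ± 0.08 (SE), 1.25-fold, with an adjusted p of 0.0476, just inside the threshold. It passed in 6 of 17 alternatives, over which its adjusted p ran from 0.0338 to 0.219. With single arrays omitted it missed the threshold for 2MT 3 (0.219), 2MT 2 (0.148), saline 2 (0.104), saline 3 (0.0964) and saline 1 (0.0787), while its difference stayed between 0.27 and 0.38.

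The other 5 tested class B J-proteins did not pass. Dnajb4, a close relative of both, read 8.62, 8.37 and 8.47 in 2MT hearts, against 8.55, 8.63 and 8.34 in saline hearts. Those groups overlapped throughout, and the difference was -0.02 with a 95% interval from -0.19 to 0.15. Dnajb2, Dnajb8, Dnajb12 and Dnajb14 had differences of -0.21 to -0.01, none of them past the test. Dnajb3, Dnajb7 and Dnajb13 were under the dim floor, as was the probe set that carries Dnajb6 alone. Dnajb13 read 3.75, 3.81 and 3.53 in 2MT hearts and 3.47, 3.36 and 3.42 in saline hearts, with an adjusted p of 0.354 when no filter was applied.

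**Figure D2:**
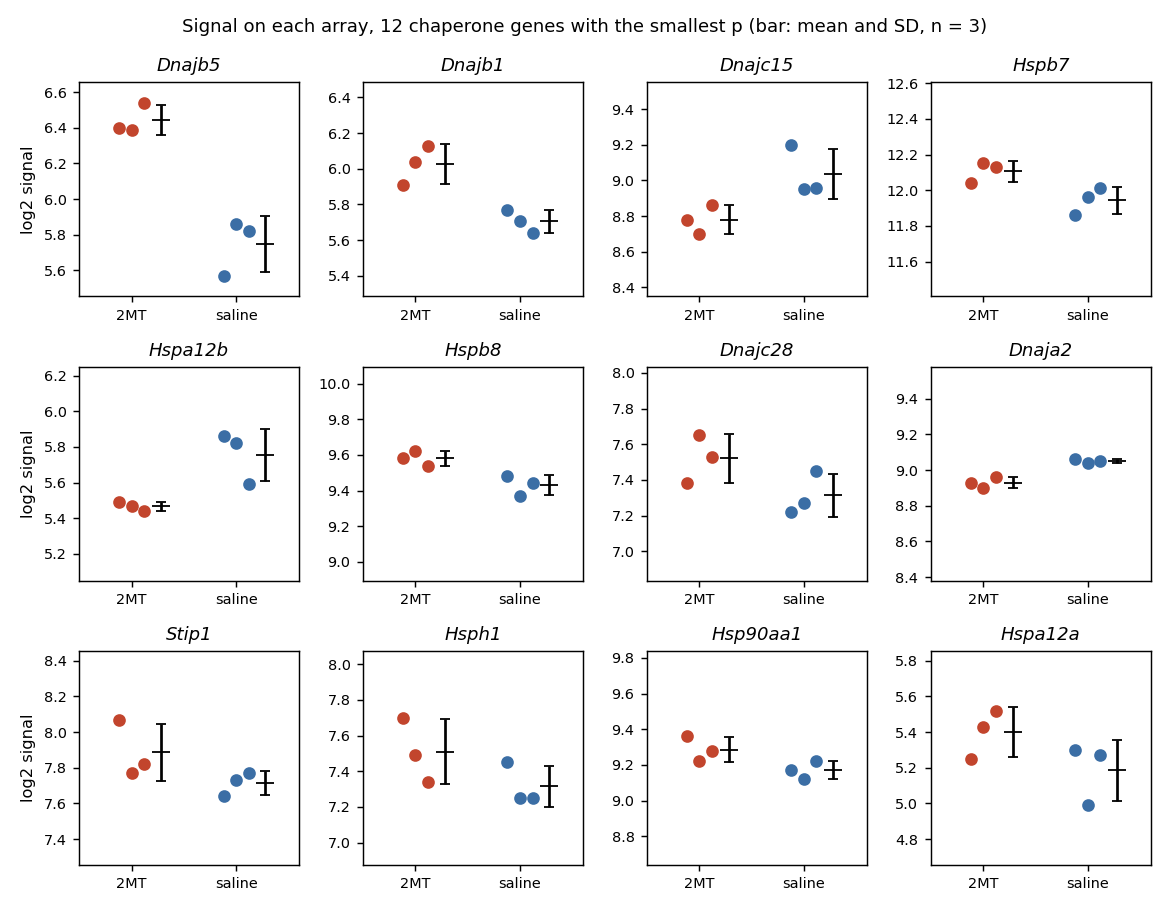
Log2 signal on each of the 6 arrays for the 12 chaperone genes with the smallest p, in panels of equal height, with 2MT left of saline and a bar for the mean and SD (n = 3). The groups stand apart in Dnajb5, Dnajb1, Dnajc15, Hspb7, Hspa12b, Hspb8 and Dnaja2 and overlap or touch in the other 5 panels.

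Many chaperone genes carry heat shock elements, inverted repeats of the pentamer nGAAn to which heat shock factors bind, so the promoters of the changed and unchanged genes were compared with RefSeq windows of GRCm38.p6 that run from 250 bases before to 50 bases after each start. Of the 73 genes, 58 matched a window by symbol. The short form searched was GAANNTTC or TTCNNGAA, each of which reads the same on either strand, and the long form was 3 alternating units, GAANNTTCNNGAA or TTCNNGAANNTTC. The forms overlap, since every long match contains short ones. A long match stood in 5 of the 58 chaperone genes (8.62%), against 0.662% of all 27025 genes in the table and 0.567% of tested genes. A short match stood in 16 (27.6%), against 17% of all genes and 13.7% of the 8460 tested genes with a window. The 5 with a long match were Hspd1, Hspe1, Hsph1, Chordc1 and Dnajb6, and the matches of Hspd1 and Hspe1, which are read in opposite directions from neighbouring starts, are the same bases.

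Neither gene that rose has even the short form in any of its windows. The 250 bases before the start are printed for Dnajb5 and Dnajb1, and beside them those of 3 chaperone genes that did not pass and do have the element, with every short match in capitals. They lie at chr4:42949617-42949866 (Dnajb5), chr8:83607925-83608174 (Dnajb1), chr1:55087898-55088147 (Hspe1) and chr5:135887669-135887918 (Hspb1) on the plus strand, and at chr17:34972157-34972406 (Hspa1a) on the minus strand.
Dnajb5: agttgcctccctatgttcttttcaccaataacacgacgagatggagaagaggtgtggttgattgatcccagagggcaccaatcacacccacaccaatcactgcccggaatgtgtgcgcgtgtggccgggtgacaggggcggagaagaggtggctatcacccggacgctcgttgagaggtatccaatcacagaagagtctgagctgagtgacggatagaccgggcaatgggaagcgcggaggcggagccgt
Dnajb1: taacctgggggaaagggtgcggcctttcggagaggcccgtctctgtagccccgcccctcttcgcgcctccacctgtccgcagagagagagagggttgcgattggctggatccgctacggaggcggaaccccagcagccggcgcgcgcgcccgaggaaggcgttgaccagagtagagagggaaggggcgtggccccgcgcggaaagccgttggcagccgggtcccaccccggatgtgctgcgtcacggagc
Hspe1: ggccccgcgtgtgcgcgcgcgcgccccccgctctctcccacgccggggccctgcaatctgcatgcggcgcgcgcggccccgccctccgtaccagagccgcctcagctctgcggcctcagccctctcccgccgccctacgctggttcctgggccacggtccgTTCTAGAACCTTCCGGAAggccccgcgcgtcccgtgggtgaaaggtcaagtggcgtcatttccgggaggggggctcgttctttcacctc
Hspb1: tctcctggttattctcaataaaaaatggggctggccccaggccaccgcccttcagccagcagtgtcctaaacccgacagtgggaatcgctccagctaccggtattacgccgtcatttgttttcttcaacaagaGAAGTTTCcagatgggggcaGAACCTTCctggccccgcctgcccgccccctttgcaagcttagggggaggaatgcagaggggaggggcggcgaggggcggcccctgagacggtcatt
Hspa1a: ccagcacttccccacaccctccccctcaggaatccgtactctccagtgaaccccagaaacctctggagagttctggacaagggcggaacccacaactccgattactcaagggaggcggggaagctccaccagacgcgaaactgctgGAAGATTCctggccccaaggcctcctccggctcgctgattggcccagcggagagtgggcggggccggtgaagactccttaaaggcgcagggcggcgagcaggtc
The Hspe1 stretch holds 3 overlapping short matches that make up 2 long ones, the Hspb1 stretch holds 2 short matches and the Hspa1a stretch 1. Among tested chaperone genes, the 4 with a long match had differences from 0.01 to 0.19 and 0 passed the test. The 14 with a short match had a median difference of 0.08, and the 36 without one had a median of -0.02 and held both genes that rose. A match describes letters only, and the absence of one says nothing about binding.

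HSP70 genes, taken here by their Hspa symbol alone, had 0 of 11 past the test in limma (1 with unadjusted p under 0.05) and a median difference of -0.02. Hspa1a, the stress-inducible HSP70, read 5.18, 5.13 and 5.43 in 2MT hearts, against 5.19, 5.65 and 5.22 in saline hearts. The highest value of the 6 was that of saline 2, and the difference of -0.11 had a 95% interval from -0.38 to 0.16. Hspa1a has a near-identical copy, Hspa1b, so its reading is uncertain. Hspa8, the constitutive cytosolic HSP70, read 11.59, 11.49 and 11.56 in 2MT hearts, against 11.57, 11.61 and 11.48 in saline hearts. The groups overlapped, with an interval from -0.10 to 0.09. All 3 of its probe sets had differences between -0.02 and -0.01. Hspa9, the mitochondrial HSP70 that pulls proteins through the inner membrane, read 11.07, 11.00 and 11.09 in 2MT hearts and 11.07, 11.06 and 11.10 in saline hearts, with an interval from -0.11 to 0.07.

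The HSP70 gene nearest to the threshold was Hspa12b, a distant family member found mainly in endothelium. It read 5.49, 5.47 and 5.44 in 2MT hearts, against 5.86, 5.82 and 5.59 in saline hearts, so that all 3 2MT values were lower. The difference was -0.29 ± 0.09 (SE) with a limma adjusted p of 0.0963. It passed in 1 of 17 alternatives, the fit without saline 3 (-0.37, adjusted p = 0.0269). With any other single array omitted, its adjusted p ran from 0.17 (2MT 1) to 0.288 (saline 1, difference -0.24). Of 6 endothelial markers, Pecam1 fell by 0.33 and 0 rose at an adjusted p under 0.05 in limma. Kdr went the other way by 0.24 (adjusted p = 0.157), and means were higher in 3 markers and lower in 3. The endothelial markers' mean level was 7.49 to 7.68 in 2MT hearts and 7.42 to 7.64 in saline hearts. The part of those cells in the value of Hspa12b was not tested. Hspa12a, its relative, read 5.25, 5.43 and 5.52 in 2MT hearts and 5.30, 4.99 and 5.27 in saline hearts, a difference of 0.21 with an adjusted p of 0.327, and of 0.12 without saline 2. The remaining genes with an Hspa symbol, Hspa1l, Hspa2, Hspa4, Hspa4l, Hspa13 and Hspa14, had differences between -0.11 and 0.09.

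In the group of Hsp90aa1, Hsph1, Stip1, Chordc1 and Ahsa1, 0 of 5 genes passed in limma. An unadjusted p under 0.05 was found in 3 of them, against 17.8% of all genes. Means were higher in 2MT hearts in 4, against 5353 of all 10547 genes tested. Stip1, the adaptor that joins HSP70 to HSP90, read 8.07, 7.77 and 7.82 in 2MT hearts, against 7.64, 7.73 and 7.77 in saline hearts. Hsph1, an HSP110 exchange factor, read 7.70, 7.49 and 7.34 in 2MT hearts and 7.45, 7.25 and 7.25 in saline hearts. Hsp90aa1, the stress-responsive HSP90, read 9.36, 9.22 and 9.28 in 2MT hearts and 9.17, 9.12 and 9.22 in saline hearts. In each of them 2MT 1 was the highest array, and 1 of the other 2MT arrays lay at or below the highest saline value. The difference was 0.17 for Stip1 (adjusted p = 0.258), 0.19 for Hsph1 (0.272) and 0.12 for Hsp90aa1 (0.273). Without 2MT 1 these became 0.08, 0.10 and 0.08.

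Chordc1, a partner of HSP90, read 6.93, 6.80 and 6.81 in 2MT hearts, above 6.74, 6.75 and 6.76 in saline hearts. The groups did not overlap, yet the difference of 0.10 had an adjusted p of 0.503, and without 2MT 1 it was 0.06. Ahsa1, which activates the HSP90 ATPase, ran the other way at 7.95, 7.96 and 7.96 in 2MT hearts against 8.09, 8.05 and 7.97 in saline hearts. Its difference was -0.08 with an adjusted p of 0.511, and -0.05 without saline 1.

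Array 2MT 1 was the highest of the 6 in 14 of 63 chaperone genes (22.2%), against 14.8% of all genes tested, and these included Stip1, Hsph1, Hsp90aa1, Chordc1, Hspb1, Cryab and Hspe1. Saline 1 was the highest in 17 (27%), against 17.8% of all genes, among them Dnaja2, Dnaja3, Dnaja4, Dnajc15 and Hspa12b. Saline 3 was the lowest in 15 (23.8%), against 17.2% of all genes, and 2MT 2 in 14 (22.2%), against 15.4%. The heat map of named genes shows these arrays side by side.

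**Figure D3:**
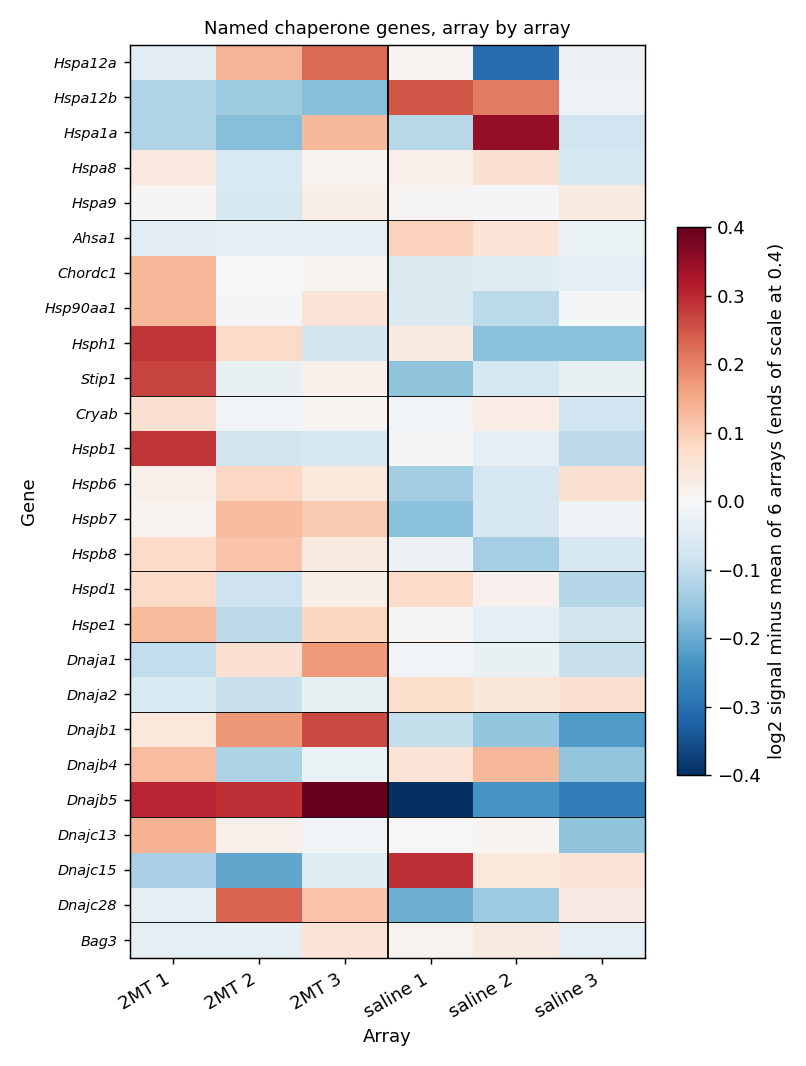
Log2 signal of 26 named chaperone genes on each array, minus the gene's mean over the 6 arrays, with 2MT left of saline and roles divided by lines. Dnajb5 is high on all 3 2MT arrays and low on all 3 saline arrays, while Hsph1, Stip1 and Hspb1 are high on 2MT 1.

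Small heat shock proteins had higher means in 2MT hearts in 6 of 7 tested genes, against 5353 of all 10547 genes tested. The median difference was 0.10, and 0 passed in limma (2 with unadjusted p under 0.05, against 17.8% of all genes). Hspb7, the cardiovascular small heat shock protein that the sarcomere needs, read 12.04, 12.15 and 12.13 in 2MT hearts, against 11.86, 11.96 and 12.01 in saline hearts. The groups were separate by a narrow margin, and the difference was 0.16 ± 0.05 (SE) with an adjusted p of 0.0669. It passed in 3 of 17 alternatives, but in only 1 of the 6 that omit an array, that without saline 3 (0.0317). Without saline 1 the difference was 0.12 (adjusted p = 0.245). Hspb8, which works with Bag3 in clearing damaged muscle proteins, read 9.58, 9.62 and 9.54 in 2MT hearts and 9.48, 9.37 and 9.44 in saline hearts. It too did not overlap, at a difference of 0.15 ± 0.05 and an adjusted p of 0.116, and it passed in 0 of 17 alternatives.

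Hspb6, a small heat shock protein phosphorylated on adrenergic stimulation, read 11.47, 11.53 and 11.49 in 2MT hearts and 11.31, 11.38 and 11.51 in saline hearts, so that saline 3 lay inside the 2MT range. Its difference was 0.10 with an adjusted p of 0.342. It was 0.05 without saline 1 and 0.15 without saline 3 (adjusted p = 0.0643). Hspb1 read 8.82, 8.46 and 8.47 in 2MT hearts against 8.53, 8.50 and 8.43 in saline hearts, and without 2MT 1 its difference went to -0.02. Cryab, the alpha B crystallin that binds desmin, read 10.89, 10.82 and 10.84 in 2MT hearts and 10.82, 10.86 and 10.75 in saline hearts, with an interval from -0.06 to 0.14 and differences of 0.01 to 0.07 when single arrays were omitted. Hspb3 and Hspb2 differed by 0.17 and -0.01 with adjusted p values of 0.425 and 0.973. Hspb9 and Hspb11 were dim. The cardiomyocyte markers beside which these muscle genes are read had a median difference of 0.01, and 0 of 10 passed in limma (1 with unadjusted p under 0.05).

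Neither gene of the mitochondrial chaperonin passed in limma, nor did either have an unadjusted p under 0.05. Hspd1, which encodes HSP60, read 9.96, 9.80 and 9.91 in 2MT hearts and 9.96, 9.90 and 9.77 in saline hearts. Its lid, Hspe1, read 9.62, 9.39 and 9.58 in 2MT hearts and 9.50, 9.46 and 9.42 in saline hearts. The groups overlapped in both, with intervals from -0.11 to 0.14 and from -0.06 to 0.20. The Hspe1 difference of 0.07 was 0.03 without 2MT 1 and 0.14 without 2MT 2, and that of Hspd1 changed sign when some arrays were omitted. Each has a second probe set, and the differences there were -0.06 and 0.08. Probe sets of Hspa8, Hspd1, Hspe1, Hsp90aa1, Hspb1 and Dnaja1 may also read near-identical copies of these genes.

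Class A J-proteins, the general partners of cytosolic HSP70, had 0 of 4 past the test in limma (1 with unadjusted p under 0.05). Dnaja2 read 8.93, 8.90 and 8.96 in 2MT hearts, against 9.06, 9.04 and 9.05 in saline hearts. All 2MT values were lower, by a mean of 0.12 that failed the correction (adjusted p = 0.207). Dnaja1 read 7.83, 7.99 and 8.10 in 2MT hearts and 7.92, 7.90 and 7.84 in saline hearts, with a difference of 0.09 and an adjusted p of 0.573. That difference was 0.02 without 2MT 3 and 0.16 without 2MT 1. Dnaja3, which works in mitochondria, and Dnaja4 differed by -0.06 and -0.05.

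Class C J-proteins are specialists that bring HSP70 to single tasks, and 0 of 22 tested genes passed in limma (2 with unadjusted p under 0.05), with a median difference of -0.02. Dnajc15, a protein of the inner mitochondrial membrane known as a brake on respiratory complex I, was the nearest. It read 8.78, 8.70 and 8.86 in 2MT hearts, against 9.20, 8.95 and 8.96 in saline hearts. The 2MT arrays were all lower, and the highest value of all was that of saline 1. The difference was -0.26 ± 0.07 (SE) with an adjusted p of 0.0529, just outside the threshold as Dnajb1 was just inside it. It passed in 5 of 17 alternatives, but in only 1 of the 6 that omit an array, that without saline 3 (0.039). Without saline 1 the difference was -0.175 (adjusted p = 0.191).

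Dnajc28 read 7.38, 7.65 and 7.53 in 2MT hearts and 7.22, 7.27 and 7.45 in saline hearts, overlapping by 1 array, with a difference of 0.21 and an adjusted p of 0.193. Dnajc7, which binds both HSP70 and HSP90, differed by -0.14 with an adjusted p of 0.327. The interval of Dnajc19, a motor subunit of mitochondrial import, ran from -0.19 to 0.15, and that of Dnajc5, the cysteine string protein of vesicles, from -0.22 to 0.06. Dnajc17 had the widest interval of the class, from -0.31 to 0.39, with 5.85, 5.77 and 5.90 in 2MT hearts and 6.27, 5.76 and 5.37 in saline hearts. Dnajc5b, Dnajc5g, Dnajc6 and Dnajc22 were dim.

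Dnajc13, an endosomal J-protein, is represented by 15 probe sets, and they differed in size of difference. It was singled out after its values were seen. The brightest probe set, which stood for the gene in the comparison, read 7.49, 7.37 and 7.34 in 2MT hearts and 7.35, 7.36 and 7.19 in saline hearts (difference 0.10, adjusted p = 0.503). That difference was 0.06 without 2MT 1 and 0.05 without saline 3. Over the 15, the mean was higher in 2MT hearts in 14, the median difference was 0.11, and the range was 0.00 to 0.49. The 0.49 was that of a probe set under the dim floor whose groups overlapped, and the largest tested difference was 0.41. In 6 of the 15 the groups did not overlap, all higher, against 11.5% of all 14480 probe sets tested one by one. In that fit 1 Dnajc13 probe set passed, against 2.90% of all probe sets (1.31% higher). It read 6.98, 6.77 and 6.98 in 2MT hearts and 6.45, 6.62 and 6.42 in saline hearts. The probe sets share 1 gene and the same RNA and are not replicates. The mean of the 15 differed by 0.20 with an adjusted p of 0.108.

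**Figure D4:**
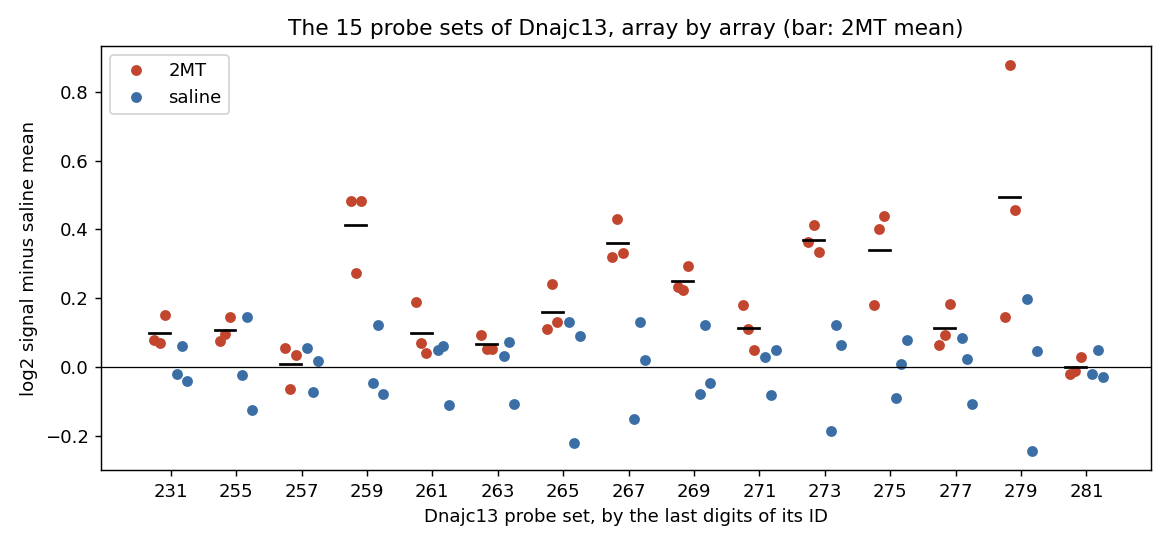
Log2 signal of each Dnajc13 probe set minus its saline mean, by array, with 2MT points left of saline points and a bar at the 2MT mean. The 2MT mean is above the saline mean in 14 of 15 probe sets, by 0.01 to 0.49, and in 6 the points of the groups are fully apart. The 0.49 belongs to a dim probe set that was not tested.

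BAG proteins, which release HSP70 from its clients, had 0 of 5 past the test in limma, and none of the 5 had an unadjusted p under 0.05. Bag3, the stress-induced member that heart muscle depends on, read 8.69, 8.69 and 8.78 in 2MT hearts and 8.74, 8.76 and 8.69 in saline hearts, with an interval from -0.12 to 0.10. Bag4 differed by 0.19 with an adjusted p of 0.345, and Bag1, Bag2 and Bag5 by -0.10, 0.04 and 0.01.

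Partners outside the symbol rule were read from the same fit. Of the heat shock factors and their binding protein, 2 of 7 were tested and 0 passed in limma (1 higher and 1 lower with an unadjusted p under 0.05). Hsf2 was at 6.11 ± 0.17 in 2MT hearts and 6.41 ± 0.21 in saline hearts (SD, n = 3, adjusted p = 0.16), and Hsbp1, which binds heat shock factor 1, was at 8.59 ± 0.02 in 2MT hearts and 8.45 ± 0.10 in saline hearts (adjusted p = 0.232). Hsf1 was not analysed here. Of 19 tested co-chaperones of HSP70 and HSP90, 1 fell, Fkbp5, the immunophilin of steroid receptor complexes, to 6.72 in 2MT hearts, against 7.52 in saline hearts, a difference of -0.79 ± 0.07 (SE, adjusted p = 1.8e-05), and 0 rose. The next smallest p values were those of Ptges3 (-0.09), Cdc37 (-0.14) and Fkbp4 (0.09), with adjusted p values of 0.369, 0.402 and 0.41. The list's median difference was -0.04.

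TRiC is the cytosolic chaperonin that folds actin and tubulin, and prefoldin feeds it. Together their genes had lower means in 2MT hearts in 11 of 14 tested, against 5070 of all 10547 genes tested. The median difference was -0.07, beside 0.00 over all genes. In limma 0 passed, and 4 had an unadjusted p under 0.05, all lower, against 8.15% lower among all genes. Cct8, Pfdn1 and Cct7 differed by -0.16, -0.20 and -0.15, with adjusted p values of 0.17, 0.193 and 0.199. Of 15 mitochondrial folding and protease partners 0 passed (1 higher and 2 lower with unadjusted p under 0.05). Grpel1, the exchange factor of Hspa9, differed by -0.18 (adjusted p = 0.163), the protease Htra2 by -0.19 (0.239) and the protease subunit Clpp by 0.17 (0.236).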

How the data were processed

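Left ventricular RNA of 3 2MT and 3 saline samples was measured on 1 Affymetrix array each. The authors deposited 1 value for each probe set on each array, read here as log2 signal because the values range between 0.51 and 13.5, with array medians of 4.32 to 4.37. Per the submitters' processing notes the software was MAS5, whose version is not stated. Other steps and the genome build are not given in the sources used here, and no array coordinates are printed. Values were used as deposited. Detection calls were not used, so differences of dim genes may be too small. Precision is limited by the number of arrays. No 2 arrays held identical values.

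Probe sets were named through the platform annotation: 21789 had 1 symbol, 1621 several and 5534 none here. The brightest probe set on average stood for its gene, and genes dimmer than the median probe set were not tested. In all, 10 probe sets that pair a chaperone symbol with another were not named. The comparison of 2MT with saline used limma 3.58.1 under R 4.3.3 (lmFit, eBayes with a variance trend, two-sided), with Benjamini-Hochberg adjustment across every tested gene and calls at an adjusted p under 0.05. With 3 against 3 arrays an exact permutation p cannot go below 0.1. The fit was tested on simulated data. Intervals are 95% limma intervals. Promoter windows are RefSeq's, GRCm38.p6. Plots used matplotlib 3.10.9 and Python 3.11.15.

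The members and lists were chosen with earlier results of these data known. Values on every array are given for genes past the test, for the 12 members with the smallest p and for a fixed set of well-known chaperones. They are also given for Dnajb13, Dnajc13 and Dnajc17, which lie outside those sets. The replicate numbers were checked for pairing. Deviations of same-numbered arrays correlated at 0.07, 0.04 and 0.02, and those of arrays with unlike numbers at -0.083 to 0.04. Correlations this small do not show pairing. With 5 of 6 arrays correlating best with their own number, they do not exclude it. Alternatives were 3 rescalings (cyclic loess, quantile, median centring), a dim filter at percentile 60 or none, an offset of 16 ahead of log2, averaging or separating the probe sets of a gene, array weights, a constant prior variance, the replicate block, and omission of each array.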

Additional observations from a re-analysis of the deposited data

Results flagged for a closer look

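One Dnajc13 probe set outside the comparison of genes, 10596259, passed in the limma fit that kept probe sets separate, with a difference of 0.41 (2MT minus saline) and an adjusted p of 0.0292, and its signal lay above the saline arrays on all 3 2MT arrays. The probe set that stood for Dnajc13 did not pass. Of the 10 probe sets that pair a chaperone symbol with another, 0 passed (0 at an unadjusted p under 0.05), with differences from -0.06 to 0.10.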

How the results depend on the processing

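Dnajb5 kept its call and direction in all 17 alternatives. The count of chaperone genes past the test, 2 as reported, was 1 with median centring, 1 with no dim filter, 1 without the variance trend and 4 with array weights, and 1 to 4 with single arrays left out. The count over all genes, 488 as reported, was 292 without the variance trend and 262 to 648 with single arrays left out. It moved by over 1.5 times without 2MT 2 (276), 2MT 3 (262) or saline 1 (298), and without these arrays the chaperone count was 1. Without saline 2 the chaperone count was also 1, and without saline 3 it was 4. With the replicate block 586 genes and 3 chaperone genes passed, among them Dnajc15 (0.0258) and Hspb7 (0.0283), while Dnajb1 did not (0.0563), and 5 of 6 arrays correlated best with their own number. The labels do not say whether a shared number marks a pair. The median difference of the chaperone genes, -0.01, was 0.012 with probe sets kept separate, where 14 of 84 were those of Dnajc13. That median was -0.02 with cyclic loess and -0.012 to 0.005 with single arrays left out. Among 26 named chaperone genes, 7 changed sign somewhere, and none of the 7 passed in any alternative. Hspa8 went to 0.029 with quantile normalization, and Hspd1 to -0.005 with cyclic loess and -0.023 with the mean of its probe sets. With single arrays left out Hspa8 ran from -0.043 to 0.022, Hspd1 from -0.04 to 0.058, Bag3 from -0.04 to 0.005, Dnajb4 from -0.103 to 0.042, Hspa9 from -0.042 to 0.003, Hspa1a from -0.198 to 0.042 and Hspb1 from -0.022 to 0.158. The cause of these shifts was not tested.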
